A study of Mus musculus with 6 samples.

Results

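The transcript models described here lie inside 7 long protein-coding genes of the mouse, Lrp1b, Ppp1r9a, Pde1c, Nedd4l, Immp2l, Gphn and Mbnl1. A transcript model is a stretch of genome, with 1 or more exons, that the authors assembled from their reads and counted. A model belonged to a gene when at least 50% of its exon bases lay in the gene's span, from its first to its last annotated base. In this way 16 of the 7959 models were found. Any overlap with a span gave the same 16, and 15 lay wholly inside. The genes were picked with these libraries' values in view: 5 of them (Lrp1b, Ppp1r9a, Pde1c, Nedd4l and Immp2l, with 8 models) for segments near 0 in the input and abundant after capture, and Gphn and Mbnl1 (8 models) to stand beside them. Their levels and fold changes in all 3 comparisons are therefore a description. Calls from a fit over all models are listed for them, and no p-value is given or read as support.

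The RNA came from MEL cells, an erythroleukemia line of the mouse with C57BL/6 given as its strain, fixed with formaldehyde. Each of 3 fractions was sequenced in 2 libraries: the chromatin before capture (input), what TH59-DB pulled down, and what masked TH59-DB, the negative control probe, pulled down. No group carried a genetic change or a drug treatment. TH59 is known as a pyrrole-imidazole polyamide, a small synthetic molecule that binds DNA in the minor groove, built to recognise telomere repeats. The comparison with masked TH59-DB asks which chromatin-bound RNAs came down with the probe beyond the control, and the comparison with the input asks how far they rose above their level in chromatin. Only this single line was used. Separate cultures are not mentioned in the labels, and the spread between 2 libraries of a group may therefore be technical.

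Long genes consist mostly of introns, and RNA from inside them can be a piece of the pre-mRNA, a separate noncoding transcript or an antisense RNA. Several of the genes are known from the nervous system. Lrp1b is an endocytic receptor of the low-density lipoprotein receptor family. Ppp1r9a encodes neurabin, which binds actin and protein phosphatase 1, Pde1c a calmodulin-activated phosphodiesterase that breaks down cyclic nucleotides, Nedd4l an E3 ubiquitin ligase, and Immp2l a subunit of the inner membrane peptidase of mitochondria. Gphn encodes gephyrin, a scaffold of inhibitory synapses that also acts in molybdenum cofactor synthesis in many tissues, and Mbnl1 a splicing regulator expressed in blood cells.

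The library totals recovered from the deposited FPKM values were 1803723 to 3122558 reads, with 35.7% to 69.2% inside the models. Levels are given as CPM, reads per 1000000 of these totals, and a single read was 0.320 to 0.554 CPM. Masked TH59-DB 1 gave no read at 4341 models, and the libraries other than TH59-DB 1 at 1404 to 1884. In TH59-DB 1 every model had 5 reads or more. A segment absent from that library may thus be missing from the set of models, which touches every level given here. Of 20 erythroid marker genes fixed for these cells, 8 had a model, Gata1 and Car2 among them. Their 27 models summed to 851 and 1175 CPM in the input, 520 and 1120 with the masked probe, and 529 and 432 with TH59-DB. None of 12 neuronal marker genes had a model.

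The segments were small pieces of very long spans. On the mm10 build, with spans from RefSeq's GRCm38.p6 table, the genes ran from 157 kb for Mbnl1 to 2058 kb for Lrp1b, longer than 97.0% of all genes or more. Of the 16 models, 13 had a single exon, whose strand the files do not settle, and 3 were spliced. Their lengths ran from 132 to 1336 bases. The table holds no exons, so whether a segment is exonic or intronic was not determined. Of 9 RefSeq promoter windows of Ppp1r9a, Pde1c, Immp2l, Gphn and Mbnl1, from 250 bases before to 50 bases after a start, 0 overlapped a model. None was used for Lrp1b and Nedd4l.

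**Figure D1:**
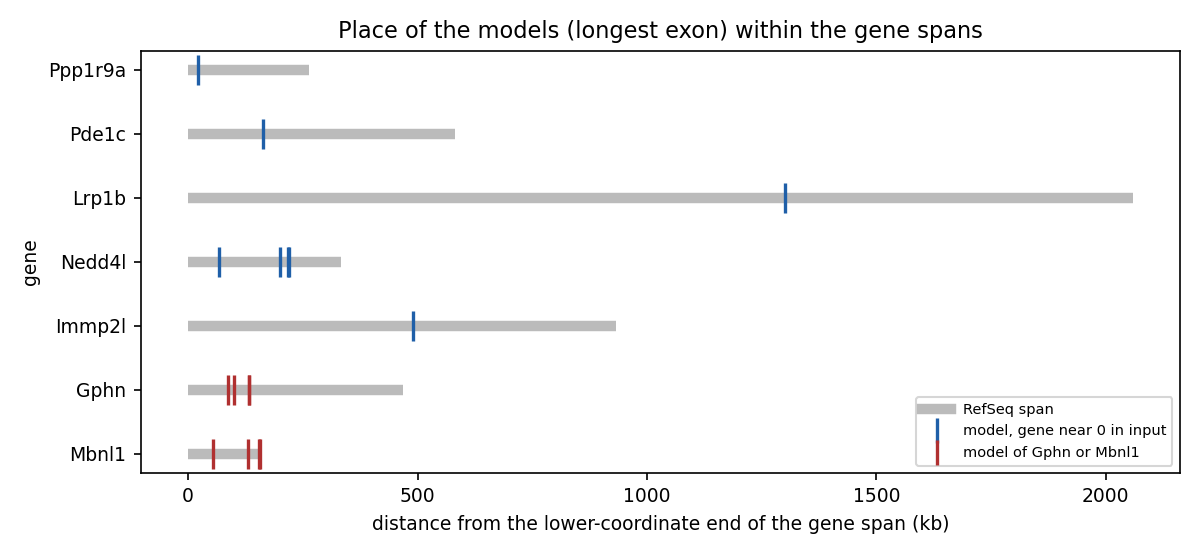
Place of the 16 models within the spans of the 7 genes, as distance in kb from the lower-coordinate end of the span. Grey bars are the RefSeq spans, blue ticks the models of the 5 genes near 0 in the input and red ticks those of Gphn and Mbnl1, each at its longest exon. Lrp1b, Ppp1r9a, Pde1c and Immp2l hold 1 tick each, and the last 2 Mbnl1 models lie within 1.79 kb of the end of their span.

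In Lrp1b (chromosome 2, 40595290 to 42653598) the only model was 223 bases long, from 41896065 to 41896287, 63.2% of the way along the span. It had 0 reads in both input libraries, 7 and 6 reads in masked TH59-DB, and 43 and 720 reads in TH59-DB, or 23.8 and 278 CPM. Both TH59-DB libraries were above all 4 others, but most of the reads came from TH59-DB 2. Mean levels were 151 CPM ± 180 with TH59-DB and 2.74 ± 1.15 with the masked probe (SD, n = 2), a ratio of 55.2 (pooled reads 68.1, 95% exact counting interval 39.6 to 128). Within same-numbered libraries the ratio was 6.71 for number 1 (2.99 to 17.7) and 145 for number 2 (66.2 to 396). Against the input it was at least 147-fold higher, with 3 reads per library as the limit that a count of 0 allows. That bound was 23.7 for number 1 and 265 for number 2.

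Ppp1r9a (chromosome 6, 4902872 to 5165661) gave the most abundant segment of the 5 genes. Its model held 697 bases in 3 exons: 679 bases from 4923857 to 4924535, which begin 21.0 kb into the span, and 2 very short pieces of 7 bases (4916777 to 4916783) and 11 bases (4862279 to 4862289). The 11-base piece lies outside the span. The model was placed on the minus strand, opposite to the gene. Reads numbered 0 in both input libraries, 140 and 67 with the masked probe, and 1457 and 6288 with TH59-DB. In CPM the masked probe gave 71.0 and 21.5, and TH59-DB 808 and 2429, so both captures were above the input, and TH59-DB was above the masked probe. Its share of TH59-DB 1 was 0.0808% (95% exact interval 0.0767% to 0.0850%), at rank 43 among the models by CPM. In TH59-DB 2 the share was 0.243% (0.237% to 0.249%), at rank 26. The mean of 1618 CPM ± 1146 with TH59-DB stood at 35.0 times the 46.2 ± 35.1 of the masked probe (SD, n = 2; pooled 43.4, interval 37.8 to 50.05). The ratio was 11.4 for number 1 and 113 for number 2. Against the input, TH59-DB was at least 1574-fold higher (804 and 2311 for numbers 1 and 2) and masked TH59-DB at least 45.0-fold higher (70.7 and 20.4).

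In Pde1c (chromosome 6, 56069798 to 56652510) the model was 168 bases long, from 56233652 to 56233819, 28.1% along the span. It had 0 input reads, 3 and 14 masked reads and 101 and 1315 TH59-DB reads, or 56.0 and 508 CPM in TH59-DB. As in Lrp1b, TH59-DB 2 held most of them, and the groups did not overlap. Mean levels were 282 CPM ± 320 with TH59-DB and 3.00 ± 2.09 with the masked probe (SD, n = 2), a ratio of 93.9 (pooled 96.6, interval 60.1 to 166). It was 36.8 for number 1 and 113 for number 2, and at least 274-fold against the input, with bounds of 55.7 and 483 for the same numbers.

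Nedd4l (chromosome 18, 64884480 to 65217826) held 4 models, numbered here by position. The fourth, 1336 bases from 65103650 to 65104985, is longer than 99.4% of all models. Input reads numbered 0 and 2 and masked reads 0 and 0, whereas TH59-DB gave 147 and 229 reads, or 81.5 and 88.4 CPM. Of the 8 models of the 5 genes it differed least between the TH59-DB libraries. Its mean of 85.0 CPM ± 4.91 (SD, n = 2) was at least 68.4-fold above masked TH59-DB, at least 53.5-fold and 92.1-fold for numbers 1 and 2, and 243-fold above the input (interval 68.7 to 2071, from only 2 input reads).

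The other Nedd4l models were sparse. The third, 470 bases from 65102152, lay 1.03 kb before the fourth and had 26 and 20 TH59-DB reads, 0 and 8 masked reads and 0 input reads. Its ratio to masked TH59-DB was 8.64 (pooled 6.67, interval 3.12 to 16.4). The second, 1051 bases from 65083646, had 51 and 28 TH59-DB reads, 6 and 0 masked reads and 0 and 1 input reads, a ratio of 12.8 (pooled 15.3, interval 6.71 to 42.9). The first, 179 bases from 64951154, goes against the description of the gene as near 0 in the input. It had 0 and 5 input reads, 0 masked reads, and 10 reads in TH59-DB 1 but 1 in TH59-DB 2, so input and TH59-DB overlapped.

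In Immp2l (chromosome 12, 41024061 to 41955588) the model was 357 bases long, from 41515011 to 41515367, near the middle of the span at 52.7%. It had 0 input reads, 0 and 4 masked reads and 70 and 379 TH59-DB reads. These were 38.8 and 146 CPM, above every other library. The mean of 92.6 CPM ± 76.1 with TH59-DB stood at 145 times the 0.641 ± 0.906 of the masked probe (SD, n = 2; pooled 130, interval 50.5 to 480, from 4 masked reads). The ratio was at least 25.5 for number 1 and 114 for number 2. Against the input it was at least 90.1-fold higher, with bounds of 38.6 for number 1 and 139 for number 2.

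Gphn (chromosome 12, 78217325 to 78684772) showed the opposite order. The third of its 4 models, 280 bases from 78350875 to 78351154, had 8630 and 2192 CPM in the input, 665 and 710 with the masked probe, and 705 and 170 with TH59-DB. The input libraries were above all 4 capture libraries, and the captures overlapped. In input 1 the 25762 reads of this segment made up 0.863% of the library (0.853% to 0.874%), the rank of 8 among all models, and in input 2 they made up 0.219% (0.214% to 0.225%). The mean CPM in TH59-DB was 0.0808 times that in the input (0.0817 and 0.0774 for numbers 1 and 2), and that in masked TH59-DB 0.127 times (0.0771 and 0.324). TH59-DB to masked TH59-DB was 1.06 for number 1 and 0.239 for number 2.

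The fourth Gphn model overlaps the third and shares its reads, with 25397 and 6243 in the input. Like the Ppp1r9a model it was placed on the minus strand, opposite to the gene, and 2 of its 3 exons have 7 bases. The first and second Gphn models, 177 and 212 bases long, had at most 9 reads in any input or masked library and 4 to 13 in TH59-DB. The second had 13 and 8 reads with TH59-DB, 0 and 6 with the masked probe and 0 and 5 in the input, so TH59-DB lay above both other groups, which overlapped each other. In CPM its ratio to masked TH59-DB was 5.36 (pooled 4.06, interval 1.58 to 12.3).

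Mbnl1 (chromosome 3, 60472559 to 60629750) held 4 models, and none was called in any comparison. The second, spliced over 381 bases in 3 exons on the gene's own strand, had 61.6 and 100.2 CPM in the input, 44.7 and 73.7 with the masked probe, and 32.2 and 23.2 with TH59-DB. Both TH59-DB libraries were below all 4 others. Its ratio was 0.468 against masked TH59-DB (interval 0.345 to 0.533) and 0.342 against the input (0.270 to 0.409). For numbers 1 and 2 the ratio was 0.720 and 0.315 against masked TH59-DB, and 0.522 and 0.231 against the input. All of these lay outside the intervals, which cover counting error only. The third ends 1.79 kb before the end of the span and had 14.1 and 9.46 CPM in the input, 13.2 and 17.6 with the masked probe, and 12.2 and 5.02 with TH59-DB. TH59-DB was below the masked probe in both libraries and overlapped the input. The fourth ends 0.570 kb before the end and had 25.1 and 20.3 CPM in the input, 6.09 and 24.7 with the masked probe, and 11.1 and 4.25 with TH59-DB. TH59-DB was below the input in both libraries and overlapped the masked probe, with a ratio of 1.82 for number 1 and 0.172 for number 2. The first, 147 bases from 60526931, had 10 and 0 TH59-DB reads, 0 and 26 masked reads and 2 and 1 input reads, and its groups overlapped.

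**Figure D2:**
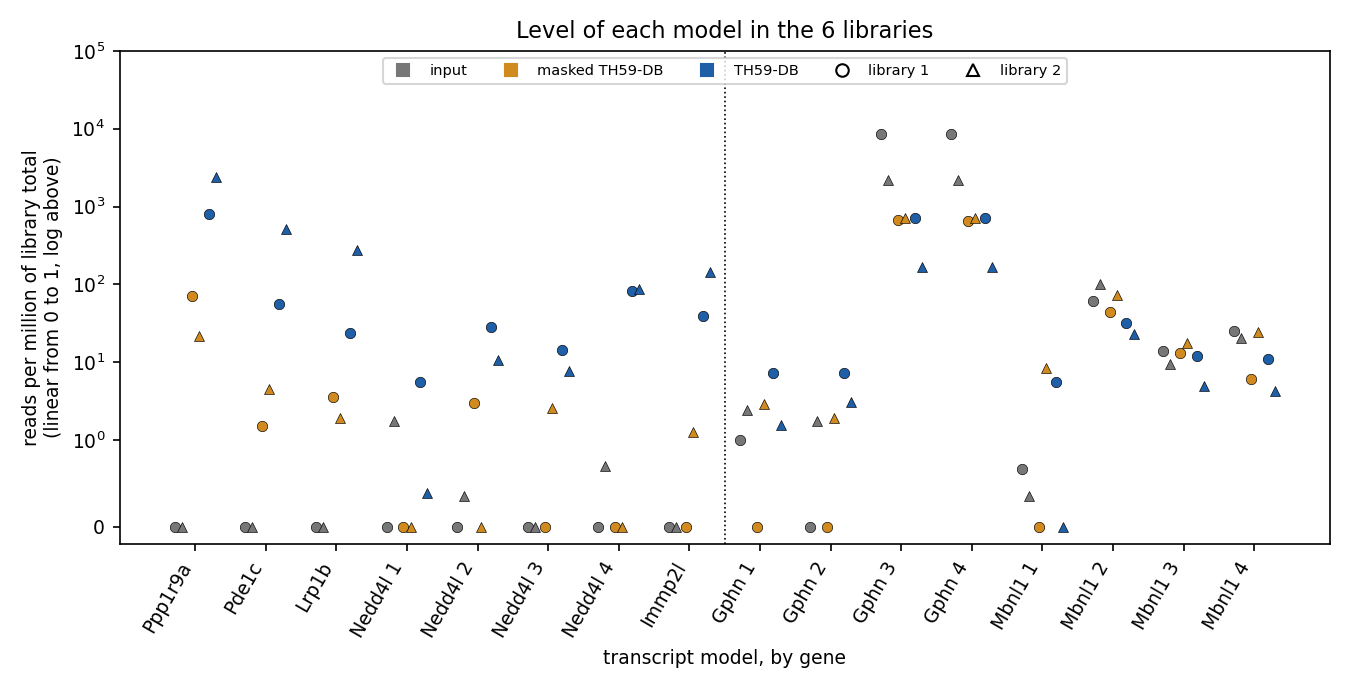
Level of each of the 16 models in the 6 libraries, in reads per 1000000 of the library total, on an axis that is linear from 0 to 1 and logarithmic above. Circles are libraries numbered 1 and triangles those numbered 2, grey for input, orange for masked TH59-DB and blue for TH59-DB; the dotted line parts the 5 genes from Gphn and Mbnl1. The blue points of Ppp1r9a, Pde1c, Lrp1b, Immp2l and the fourth Nedd4l model lie above all their other points, whereas the grey points of the third and the fourth Gphn models, which overlap, lie highest.

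Summed over its models, Ppp1r9a was the most abundant of the 5 genes in TH59-DB, at 808 and 2429 CPM. It was followed by Pde1c (56.0 and 508), Lrp1b (23.8 and 278), Nedd4l (129.7 and 107) and Immp2l (38.8 and 146). The spreads of these last 4 overlapped, so their order is not settled, and in TH59-DB 1 Nedd4l was the highest of the 4. Gphn, with its overlapping pair counted once, summed to 719 and 174 CPM in TH59-DB, and Mbnl1 to 61.0 and 32.4. Compared per length, as FPKM, the Pde1c segment reached 1678 ± 1902 and that of Ppp1r9a 2322 ± 1644 in TH59-DB, and the fourth Nedd4l segment, the longest, 63.6 ± 3.68 (SD, n = 2).

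Fold changes were also fitted with edgeR over the 5385 models that passed a filter on low counts, and a model was called at an adjusted p under 0.05. Of the 16 models 13 passed the filter, 7 of 8 in the 5 genes and 6 of 8 in Gphn and Mbnl1; the first Nedd4l model and the first 2 Gphn models did not. A segment near 0 elsewhere passes only through its TH59-DB reads, and the genes were chosen on these values, so nothing is read from the counts that follow. Against masked TH59-DB, 3 models of the 5 genes were called higher, beside 1.41% of all models tested. They were the fourth Nedd4l model, Pde1c (log2 fold change 7.20, SE 1.43) and Immp2l (7.54, SE 1.34). Ppp1r9a (5.46, SE 1.33), Lrp1b (6.37, SE 1.44) and both other tested Nedd4l models (3.60 for the second, 3.31 for the third) were not called. The median over the 7 was 6.37, or 6.10 with the model at 0 masked reads set to its bound, beside 0.30 over all models tested.

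The calls of Pde1c and Immp2l rested on TH59-DB 2. Without TH59-DB 2, Pde1c (3.81) and Immp2l (5.37) were no longer called against masked TH59-DB, and Lrp1b was at 2.62. The Ppp1r9a model was called in 7 of 13 settings and Lrp1b in 11 of 13, including DESeq2 for both, and the fourth Nedd4l model in 13 of 13. The second Nedd4l model was called only without masked TH59-DB 1, which held all its masked reads (8.66), and the third only without masked TH59-DB 2, which held all of its own (7.68). With 0 masked reads left, those 2 values depend on how 0 is fitted.

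Against the input, 5 models of the 5 genes were called higher, in Ppp1r9a, Pde1c, Lrp1b, Immp2l and the fourth Nedd4l model, beside 3.58% of all models. The second and the third Nedd4l models were not, but were called in 6 and 5 of 13 settings, among them DESeq2, no filter and a fit of those 2 groups. The median over the 7 was 11.33, or 7.20 with the 5 models at 0 input reads set to their bounds, beside 0.03 over all models. Without TH59-DB 2, Immp2l and Lrp1b were not called. None of the 16 was among the models called lower than the input, 0.0371% of those tested. For the third Gphn model the log2 fold change was -4.06 (SE 1.20) and for the second Mbnl1 model -1.49 (SE 0.60), neither called. DESeq2, a fit with no filter and one with the replicate number as a block called the Gphn segment lower, and without input 1 its value was -2.37.

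Between masked TH59-DB and the input, edgeR called none of the 16, beside 0.26% of all models called higher. At an unadjusted p under 0.05 edgeR had 208 models higher and 159 lower; by DESeq2, 101 were called higher and 20 lower. In other settings Ppp1r9a was called higher in 8 of 13, DESeq2 among them, Pde1c in 2 of 12, Lrp1b in 2 of 12 and the second Nedd4l model in 1 of 12, and DESeq2 called the third and the fourth Gphn models lower. Without input 1 the log2 value of the third Gphn model moved from -3.35 to -1.35. Ppp1r9a, at 0 in the input, was at least 45.0-fold higher, Pde1c at least 2.92-fold and Lrp1b at least 2.66-fold. These 3 were also the models of the 5 genes whose masked libraries both lay above both input libraries, beside 11.1% of all 7959 models.

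Counted over all models in CPM, both TH59-DB libraries lay above both masked ones for 8 of 8 models of the 5 genes and 1 of 8 of Gphn and Mbnl1, beside 21.8% of all models. They lay below for 2 models of Gphn and Mbnl1, beside 9.94%. Both lay above both input libraries for 7 of 8 and 1 of 8, beside 25.5%, and below them for 4 of the 8 models of Gphn and Mbnl1, beside 15.9%. The model of the 5 genes left out was the first of Nedd4l.

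Over 4 of these segments TH59-DB 2 exceeded TH59-DB 1 by more than over most models. Among 4787 models with at least 5 reads in both, the median level in TH59-DB 2 was 0.557 times that in TH59-DB 1, and 2.32% were over 3 times higher in TH59-DB 2. The lower decile of this ratio was 0.232 and the upper 1.46, so large differences in favour of TH59-DB 1 were common. The models held 59.0% of the reads of TH59-DB 1 and 35.7% of those of TH59-DB 2, and the part of this in the median was not tested. Lrp1b was 11.7 times higher in TH59-DB 2, Pde1c 9.07, Immp2l 3.77 and Ppp1r9a 3.01, each above at least 97.7% of models. The Nedd4l models did not share this: the ratios were 0.382 for the second, 0.536 for the third and 1.09 for the fourth. The third Gphn model, at 0.241, and the second Mbnl1 model, at 0.721, lay on both sides of the median.

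**Figure D3:**
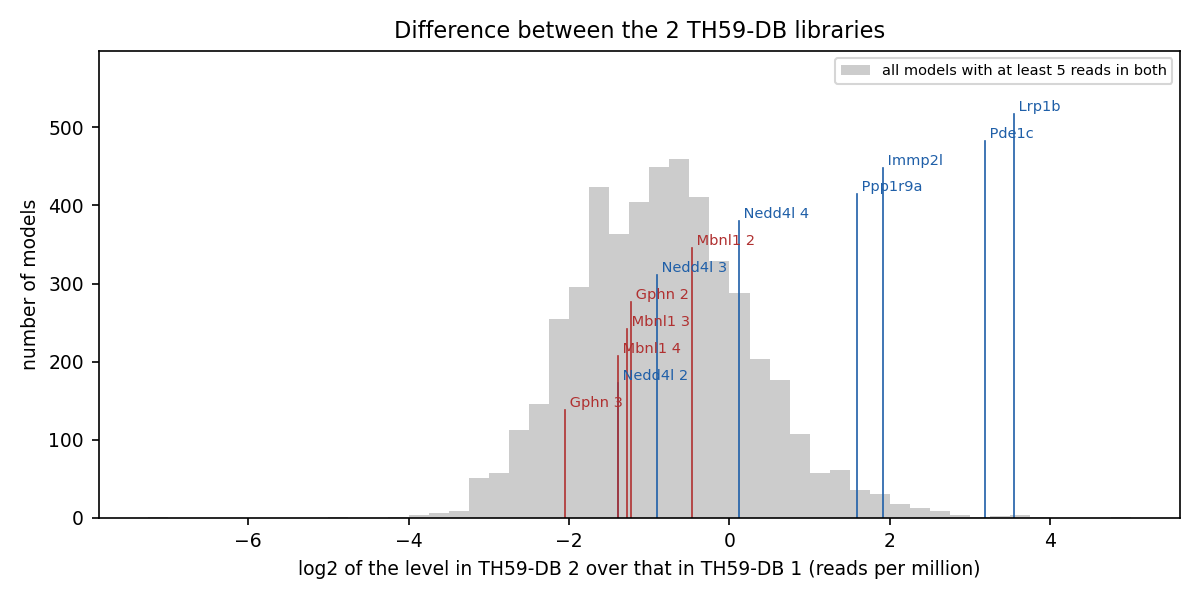
Log2 of the level in TH59-DB 2 over that in TH59-DB 1, as a histogram of the 4787 models with at least 5 reads in both libraries (grey, number of models per bin). Coloured lines mark the models described here, blue for the 5 genes and red for Gphn and Mbnl1; their heights only separate the names. Ppp1r9a, Immp2l, Pde1c and Lrp1b lie in the right tail.

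Segments near 0 in the input were common among the models. Taking at most 2 reads in both input libraries together as near 0, 2033 of the 7959 models qualified, and 7 of the 8 models of the 5 genes. Ranked by mean CPM in TH59-DB among these, Ppp1r9a was at rank 5, Pde1c 34, Lrp1b 48, Immp2l 60 and the fourth Nedd4l model 65, with the second at 139 and the third at 206. All 7 had at least 10 reads in both TH59-DB libraries, which 14.2% of the other models near 0 in the input had. The 5 genes were picked for segments abundant after capture, so the high ranks and this difference follow from the choice. Of those others, 75.1% had at most 3 reads in TH59-DB 2, with a median of 14 reads in TH59-DB 1 and 0 in TH59-DB 2.

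The single segments of Lrp1b, Immp2l, Ppp1r9a and Pde1c also stood far from any other model. The nearest lay 2025, 1921, 1266 and 545 kb away, against a median of 11.2 kb over all models. The Nedd4l models lay 1.03 to 132 kb from their nearest neighbour and those of Gphn and Mbnl1 0 to 68.7 kb.

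Long genes as a class held many segments near 0 in the input. With the 16 models left out, and each model placed by the longest span that holds at least 50% of its bases, 6.59% of models in spans under 10 kb had at most 2 input reads. The share was 16.1% in spans of 10 to 100 kb, 35.9% in spans of 100 to 500 kb, and 57.6% (106 of 184) in spans of 500 kb or more. In no gene span it was 61.9%. The share of tested models called higher than masked TH59-DB was 0.219%, 0.351%, 2.31% and 2.78% from the shortest to the longest spans and 7.98% in no span. Against the input these shares were 0.328%, 1.08%, 5.17%, 13.9% and 20.04%. Models that overlap and share reads were each counted in all these shares. Models near 0 in the input pass the filter only through captured reads, which moves with these shares, and its part in them was not tested.

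**Figure D4:**
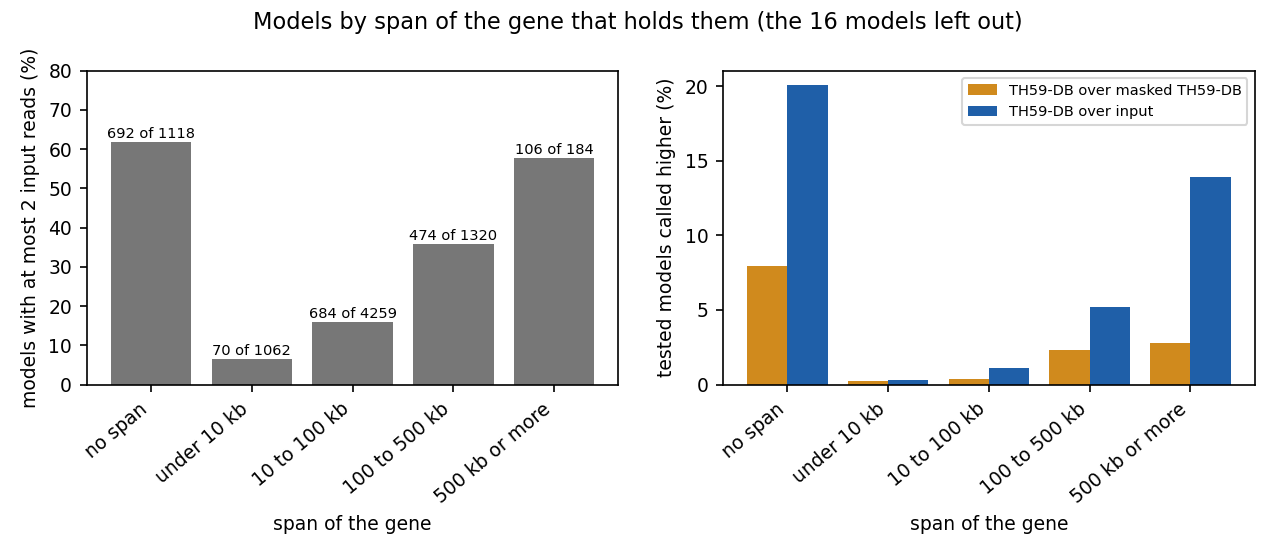
Models grouped by the span of the gene that holds them, with the 16 models described here left out. Left, percent of models with at most 2 input reads, with counts; right, percent of tested models that edgeR called higher in TH59-DB than in masked TH59-DB (orange) and than in the input (blue). The shares rise from spans under 10 kb to spans of 500 kb or more, and models in no span are highest.

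The other genes with a span of at least 500 kb numbered 233, and 77 of them held 184 models, of which 72 were tested. Against masked TH59-DB 2 were called higher and 0 lower, with a median log2 fold change of 1.32 beside 0.30 over all models tested. Against the input 10 were higher and 0 lower. Those 10 include overlapping pairs in Lpp, Frmd4a and Ptprm that share most or all of their reads, with each model counted. The 2 called against masked TH59-DB were named after their values were seen. They were a Tenm3 model (129 and 120 TH59-DB reads, 7 and 5 masked, 0 input) and a Frmd4a model (156 and 578, 12 and 40, 0 input). Tenm3 encodes a teneurin, a neuronal adhesion protein. The largest fitted changes belonged to models with 0 masked reads. The model of Marchf1, a ubiquitin ligase gene, had 76 and 27 TH59-DB reads and was at least 21.2-fold higher, and one of Camta1 was at least 11.9-fold higher. One of Pde4d, a cyclic AMP phosphodiesterase, with 13 and 56 reads, was at least 11.6-fold higher, as was a second of Tenm3, with 33 and 27 reads. None of these 4 was called against masked TH59-DB, and the Marchf1 model was called higher than the input. Of the 106 models near 0 in the input, 15 had at least 10 reads in both TH59-DB libraries, and 86 had at most 3 in TH59-DB 2. These were 14.2% and 81.1%, beside 14.2% and 75.1% over all models near 0 with the members left out.

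Long genes known for common fragile sites or neuronal adhesion, such as Foxp1 and Sox5, were a list of 27. They held 25 models in 10 genes, 18 of them near 0 in the input, and 5 were tested. None was called in any comparison with edgeR. Against masked TH59-DB the values were 2.19 for Sox5, 1.91 for Foxp1 and 1.61 for Naaladl2. Of the 18 near 0, 1 had at least 10 reads in both TH59-DB libraries and 17 had at most 3 in TH59-DB 2.

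No model of the relatives and partners of the 7 genes was called. Of 29 such genes, among them the calmodulin genes that activate Pde1c, catalytic subunits of protein phosphatase 1, the Nedd4 family and the other Mbnl genes, 10 held 23 models. Of these 15 were tested, and none was called in any comparison with edgeR; 3 of the 23 were near 0 in the input. The median log2 fold change against masked TH59-DB was -0.53, beside 0.30 over all models. A Nedd4 model had 1.77 (SE 1.31), another of the same gene -1.39 (SE 0.72), a Calm3 model -1.26 (SE 0.67), a model of Ppp1r9b, the close relative of Ppp1r9a, -0.84 (SE 0.71) and a Ppp1cc model -0.82 (SE 0.74).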

How the data were processed

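RNA was sequenced from MEL chromatin in 6 libraries, with a stranded total RNA kit per the labels' protocols. Per the submitters' processing notes the tools were cutadapt, HISAT2, Cufflinks and featureCounts, on mm10; versions, roles and the strand setting are not given in the sources used here. The authors deposited counts, whole numbers of reads per model, and FPKM, which per the files equals the count per length and library total; the totals were recovered from it, and what they count is not stated. Zero counts have the FPKM of 1 read in 4 libraries, so counts were used. In each group 1 library carries the number 2 in its label; the unnumbered one was taken as 1.

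The files of the 2 numbers were joined on all exons (7695 models) or on chromosome, first start and length (264). Counts were tested with edgeR 4.0.16 in R 4.3.3 (filterByExpr, TMM on the library totals, robust quasi-likelihood, 1 fit of all groups, Benjamini-Hochberg over 5385 models). The biological coefficient of variation was 0.702. On simulated data with the libraries' means and depths, 99.5% of changed models in TH59-DB against masked TH59-DB were recovered. The simulated spread was smaller than the fitted 0.702, and only large changes in well-covered models were simulated. That share checks the code and does not give the power of the fit for these data. SDs are over 2 libraries. Where both libraries of a group had 0 reads, ratios were taken against 3 reads per library. Intervals are exact binomial (95%), on pooled reads, and cover counting error only, not the spread between libraries. For Ppp1r9a and Lrp1b the ratios of both library numbers to masked TH59-DB lay outside them. The reads carry no molecular identifiers, so copies of a molecule cannot be told apart and even the counting error may be larger.

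All models of the 7 genes are named. From each other list the 4 genes with the largest fitted change against masked TH59-DB are named, and the 5 models most like the 5 genes; 1 named result is not reported here. The members and lists were chosen with earlier results of these data known. Alternatives were DESeq2 1.42.0, its size factors, no filter, a replicate block, 2-group fits, leaving out each library, and, chosen after seeing the data, library sizes summed over the models.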

Additional observations from a re-analysis of the deposited data

How the results depend on the processing

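The number of models called in TH59-DB against masked TH59-DB, 76 as reported, was 167 with DESeq2 size factors, 267 with DESeq2, 206 with no filter, 129 in a fit of those 2 groups, 155 with library sizes summed over the models and 32 to 1720 with a library left out (32 without TH59-DB 2, 1720 without masked TH59-DB 2). Against the input, 195 became 397 with DESeq2, 312 with no filter, 497 in a fit of those 2 groups and 102 to 756 with a library left out (102 without TH59-DB 2, 756 without masked TH59-DB 2). For masked TH59-DB against the input, 14 became 57 with DESeq2 size factors, 121 with DESeq2, 113 with no filter, 50 with library sizes summed over the models and 0 to 1413 with a library left out. The 0 came without input 1 (edgeR, unadjusted p under 0.05 for 145 higher and 25 lower) and without input 2 (127 and 75), and 1413 came without masked TH59-DB 2. The causes were not tested.

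Whether same-numbered libraries were made together is not stated, and a batch that goes with the number was not tested. Strand was recorded differently by number: all 5997 single-exon models were plus in number 1 and undetermined in number 2. The deviations of same-numbered libraries from the group means correlated at 0.142, 0.108 and 0.0204 for the 3 pairs of groups. With the replicate block the counts were 191, 363 and 106, and no member lost a call. The block added calls for Ppp1r9a and Lrp1b against masked TH59-DB, for the second Nedd4l model and, as lower, the third and the fourth Gphn models against the input, and for Ppp1r9a and Pde1c in masked TH59-DB against the input.

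Of the members' log2 fold changes, 5 turned with a library left out, 1 of them in 2 such fits, and none was called as reported. Ranges are over the fits that leave out a library each. The second Nedd4l model, masked TH59-DB against the input, ran from -2.31 without masked TH59-DB 1 to 5.25. The first Mbnl1 model ran from -6.10 to 0.11 against masked TH59-DB (0.11 without TH59-DB 2) and from -3.62 to 2.49 against the input (-3.62 without TH59-DB 1). The third Mbnl1 model ran from -1.17 to 6.01e-04 in TH59-DB against the input (6.01e-04 without input 1), and from -0.19 to 0.97 in masked TH59-DB against the input (-0.19 without input 2, -0.06 without TH59-DB 2). With 0 to 26 reads per masked or input library for most members, levels near 1 read cannot be ordered at this depth.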

Other observations

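Over the 6 libraries, the mean log2 profile of the 8 models of the 5 genes (CPM plus 0.5) was set against 4851 other tested models in gene spans, and 145 had a Pearson r above 0.9. The points share their libraries and depths, so this is a description. The most like was a model of Snhg10, a snoRNA host gene with a span of only 1.66 kb, at r = 0.993. Unlike the members it was not near 0 in the input: it had 46.9 and 60.6 CPM there, 93.4 and 92.9 with the masked probe, and 269 and 423 with TH59-DB. Gm40166 (0.993) and 1700044C05Rik (0.992) had 0 input reads, 1 or 2 reads in each masked library, and 29 and 39 or 24 and 68 reads in TH59-DB. In Xkrx, of the XK family of membrane proteins, 2 overlapping models (0.992 and 0.991) shared reads. The longer had 1 and 0 input reads, 3 and 8 masked reads and 308 and 1161 TH59-DB reads. None of these genes has a span of 100 kb or more.

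Among the models themselves, the profiles of Pde1c and Lrp1b were most alike (r = 0.982 over 6 libraries). The first Nedd4l model, with 5 reads in input 2, was least like the others of the 5 genes, at 0.217 to 0.642.

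In Ptprm, a gene of 688 kb encoding a receptor tyrosine phosphatase, an overlapping pair of models, chosen after its values were seen, had 3795 and 6212 reads with TH59-DB, 374 and 129 with the masked probe and 3 and 0 in the input. Against masked TH59-DB the mean CPM was 19.5 times higher, and neither model of the pair was called there. Both were called against the input.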
